A study of Homo sapiens with 2 samples.

Results

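The genes described here encode proteins of the cytosolic and the mitochondrial ribosome. They were chosen by symbol, as RPL, RPS, MRPL or MRPS followed by a number and at most 1 final letter A, L, X or Y, and 121 of the 14884 named genes met this rule. A gene with several probe sets was read from its brightest one, judged by the mean of the 2 arrays. By symbol they fell into 18 proteins of the cytosolic small subunit (RPS), 31 of the cytosolic large subunit (RPL), 24 of the mitochondrial small subunit (MRPS) and 48 of the mitochondrial large subunit (MRPL). The symbols are not an exact map of the particles, since MRPS30 and MRPS18A are known to sit in the large mitochondrial subunit.

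RNA came from UACC62, an established human melanoma line, harvested 3 days after transfection with an siRNA specific for FOSL1 (1 array) or with a non-targeting siRNA (1 array). FOSL1, also called FRA1, is a subunit of the transcription factor AP-1, and the series title places it in the reprogramming of melanocytes. Both cultures grew in DMEM with fetal calf serum, and the labels do not say how many siRNA sequences were used against FOSL1. The comparison asks how far transcripts differed when FOSL1 was depleted, here for the protein parts of ribosomes.

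Cytosolic ribosomes make nearly all proteins of the cell, and their protein mRNAs are known for a pyrimidine tract at the very start, the 5′ TOP, through which mTOR signalling and LARP1 control their translation. Mitochondrial ribosomes are built from another set of proteins, encoded in the nucleus and imported, and translate the few mRNAs of mitochondrial DNA that encode parts of the respiratory chain. In both kinds of ribosome, members are needed in matched amounts, and several are known disease genes.

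FOSL1 itself had a log2 value of 10.38 with FOSL1 siRNA, against 11.90 with control siRNA, a level 2.88-fold lower. Across all 53427 probe sets the arrays had a Pearson correlation of 0.987, and their medians were both 6.885. Of 10 named melanocyte markers 8 were brighter than the filter used below, among them SOX10, MITF, MLANA and S100B, whereas PMEL and TYRP1 were dimmer. Of 10 named markers of other cell types, LUM, KRT18 and CD68 passed the filter. LUM, a proteoglycan of fibroblasts, had 11.53 with FOSL1 siRNA and 11.05 with control siRNA. DCN, another one, was far below the filter and lay the other way, at 3.97 with FOSL1 siRNA and 4.15 with control siRNA. CD68, a marker of macrophages, had 10.17 with FOSL1 siRNA and 10.79 with control siRNA. KRT18, a keratin of epithelia, had 10.85 with FOSL1 siRNA and 11.12 with control siRNA. CD68 and KRT18 thus lay below 0 and LUM above it. Summed over the 10, of which 7 were below the filter, the log2 values came to 77.5 with FOSL1 siRNA and 79.2 with control siRNA, and their part in the results was not tested.

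The starts of several cytosolic genes are shown because the 5′ TOP is the feature these mRNAs share by name. Each line is a RefSeq window of 30 bases on GRCh38.p14, from 10 bases before to 20 bases after the annotated start, and capitals mark the run of at least 5 pyrimidines that holds the start base. RPS3 (chr11:75399508-75399537, plus strand), RPS6 (chr9:19380217-19380246, minus), RPS19 (chr19:41860245-41860274, plus), RPS9 (chr19:54200848-54200877, plus), RPL39 (chrX:119791611-119791640, minus) and RPL37A (chr2:216498834-216498863, plus) have such a run. RPS26 (chr12:56041908-56041937, plus) has none that holds the start base, although a run of pyrimidines begins shortly after it.
RPS3: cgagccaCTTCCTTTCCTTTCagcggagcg
RPS6: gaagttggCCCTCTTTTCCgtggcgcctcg
RPS19: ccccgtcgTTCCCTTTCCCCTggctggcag
RPS9: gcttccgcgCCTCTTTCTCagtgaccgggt
RPL39: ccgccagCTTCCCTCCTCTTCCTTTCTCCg
RPL37A: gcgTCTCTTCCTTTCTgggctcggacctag
RPS26: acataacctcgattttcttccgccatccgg

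A C at the annotated start followed by 4 pyrimidines was found in 11 of 17 promoters of the small cytosolic subunit and in 17 of 27 of the large one. Among mitochondrial members it was found in 2 of 23 small subunit and 3 of 41 large subunit promoters, and among all 27305 promoters in 4.04%. The 28 cytosolic members with the tract that passed the filter had a median log2 difference of -0.05, with 17 below 0. The 12 without it had a median of -0.03, with 7 below 0. When the tract could begin within 5 bases of the start, 13 of 17 RPS, 21 of 27 RPL and 21.1% of all promoters had it. By that wider rule, 32 cytosolic members that passed had a median of -0.05, with 20 below 0. The 8 without it had a median of -0.02, with 4 below 0. Both splits follow the annotated RefSeq start, which was not checked against measured starts. They thus cannot compare mRNAs with and without a 5′ TOP. RPS15A, the lowest RPS member, had no promoter sequence here and is in no group. RPS3 and RPL37A both carry the tract and lay on opposite sides of 0, as given below.

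Differences are log2 values with FOSL1 siRNA minus log2 values with control siRNA, so a negative one means a lower level with FOSL1 siRNA. With 1 array per condition there was no replicate error and no test, and the differences describe these 2 arrays. In bulk RNA, fewer cells of a kind and less RNA per cell cannot be told apart. Genes whose mean log2 value reached the median over named genes, 8.021, passed a filter on dim genes, which left 7442 genes and 111 of the 121 members.

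Ribosomal protein genes differed little between the arrays. None of the 111 members was 1.5-fold higher, against 1.13% of all genes that passed the filter, and none was 1.5-fold lower, against 0.766%. The same held for all 121 members without the filter, where 1.91% of all 14884 genes were 1.5-fold higher and 1.43% 1.5-fold lower. These counts use the brightest probe set of each gene. A dimmer probe set of RPL19, uncertain as to strand, was past 1.5-fold lower, as given below. At least 1.2-fold higher were 3 members (2.70%), MRPS28, MRPS10 and MRPS35, against 11.1% of all genes. At least 1.2-fold lower were 4 members (3.60%), MRPL49, MRPS14, MRPS2 and RPS15A, against 9.78% of all genes. The remaining 104 members (93.7%) lay within 1.2-fold, as did 79.1% of all genes. The SD across genes was 0.14 for the members and 0.23 for all genes that passed the filter. Between the 2 brightest probe sets of a gene, over 213 genes on the same arrays, the difference varied with an SD of 0.169.

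More members lay below 0 than above it, by small amounts. The median over the 111 members was -0.04, with 65 (58.6%) below 0, and over all genes it was -0.00, with 50.1% below 0. By class, the median was -0.08 for the 16 RPS members, -0.04 for the 28 RPL members, -0.01 for the 23 MRPS members and -0.03 for the 44 MRPL members that passed the filter. The means were closer together, at -0.03 for RPS, -0.02 for RPL, -0.00 for MRPS and -0.03 for MRPL. The spread across genes was widest in the MRPS class (SD 0.19) and narrowest in the RPL class (SD 0.10). When a trend of the differences on gene span was removed, all 4 medians lay above 0, as described below.

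**Figure D1:**
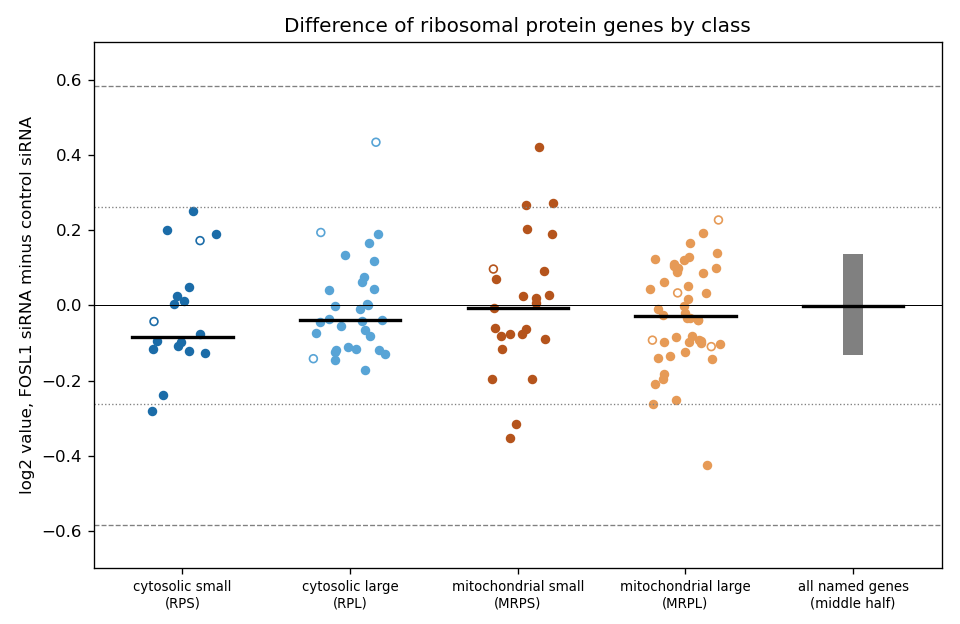
Difference in log2 value (FOSL1 siRNA minus control siRNA, vertical axis) of each ribosomal protein gene by class. Filled points passed the filter on dim genes, open points did not, black lines are medians of the filled points, the grey bar spans the middle 50% of all named genes that passed, and dotted and dashed lines mark 1.2-fold and 1.5-fold. No point passes the 1.5-fold lines, and the class medians lie between -0.08 and -0.01.

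In the cytosolic small subunit, the lowest difference was that of RPS15A, a core protein of the small subunit. RPS15A had a log2 value of 9.53 with FOSL1 siRNA, against 9.81 with control siRNA, a level 1.22-fold lower. RPS3, which lies at the mRNA entry channel and also has roles in DNA repair, had 9.58 with FOSL1 siRNA and 9.82 with control siRNA, a difference of -0.24. RPS21 and RPS27, a zinc finger protein of the particle, differed by -0.13 and -0.12.

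At the other end stood RPS26, which contacts mRNA near the exit channel and is mutated in Diamond-Blackfan anaemia. RPS26 had a log2 value of 9.64 with FOSL1 siRNA, against 9.39 with control siRNA, a level 1.19-fold higher. RPS9, an early-binding protein of the small subunit, had 8.58 with FOSL1 siRNA and 8.38 with control siRNA, a difference of 0.20. RPS23, a protein of the decoding centre, had 10.40 with FOSL1 siRNA and 10.21 with control siRNA, a difference of 0.19. RPS19, the most often mutated gene of Diamond-Blackfan anaemia, differed by 0.05 at log2 values of 13.34 with FOSL1 siRNA and 13.30 with control siRNA. RPS6, the classical substrate of S6 kinase, had 9.74 with FOSL1 siRNA and 9.85 with control siRNA, a difference of -0.11. RPS members of the same particle thus lay on both sides of 0.

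In the cytosolic large subunit, the differences ran from -0.17 to 0.19 over the 28 members that passed the filter, and none reached 1.2-fold on its brightest probe set. As means over their probe sets, RPL19 and RPL41 were past 1.2-fold lower, as given below. RPL39, a small protein that lines the exit tunnel for the nascent chain, had a log2 value of 9.76 with FOSL1 siRNA, against 9.93 with control siRNA, a difference of -0.17. Its dimmer probe set gave -0.04, and the brighter one is uncertain as to strand, as given below. RPL10A, part of the mobile stalk near the tRNA exit site, differed by -0.15 and RPL36 by -0.12. RPL37A, a zinc-binding protein, had 8.24 with FOSL1 siRNA, against 8.06 with control siRNA, a difference of 0.19. RPL30 differed by 0.17, RPL27 by 0.13 and RPL9 by 0.12. RPL11 binds and inhibits MDM2 when ribosome assembly is disturbed, together with RPL5 and the 5S ribosomal RNA. RPL11 had 10.88 with FOSL1 siRNA and 10.83 with control siRNA, a difference of 0.04, and RPL5 had no named probe set here.

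Some ribosomal proteins have paralogues expressed in few tissues, and these are reported whether or not they passed the filter. RPL39L, best known from male germ cells and some tumours, had a log2 value of 7.57 with FOSL1 siRNA, against 7.13 with control siRNA. That level, 1.35-fold higher, was the largest positive difference of all 121 members (0.43). Its parent RPL39 lay at -0.17 on its brighter probe set, uncertain as to strand, and at -0.04 on the dimmer one. RPL39L was below the filter, and 11.7% of all 14884 genes lay past 1.2-fold on the higher side and 14.8% on the lower side when no filter was set. RPS27L, a p53-induced paralogue of RPS27, had 7.95 with FOSL1 siRNA and 7.78 with control siRNA, a difference of 0.17, and was also below the filter. RPL3L, a form of striated muscle, differed by -0.13 at 8.22 with FOSL1 siRNA and 8.35 with control siRNA. RPL10L, a testis retrogene, had 5.02 with FOSL1 siRNA and 5.17 with control siRNA, the dimmest values of all members. RPL10, its parent on the X chromosome, was at 13.79 with FOSL1 siRNA and 13.78 with control siRNA, a difference of 0.00.

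**Figure D2:**
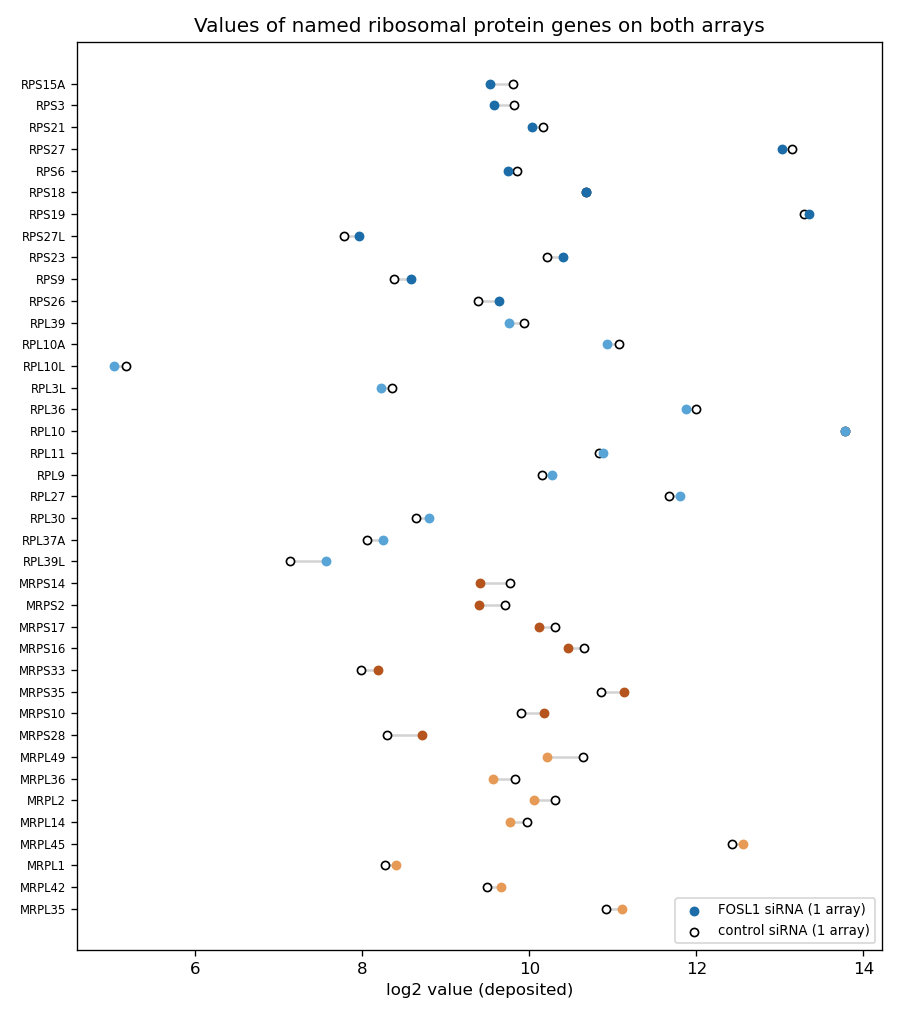
Deposited log2 values (horizontal axis) of the ribosomal protein genes chosen by the rule for named genes, 1 row per gene, grouped by class and ordered by difference within it. Filled points in the class colours are the array with FOSL1 siRNA and open points the array with control siRNA. The widest gaps are those of RPL39L (0.43), MRPL49 (-0.42) and MRPS28 (0.42).

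In the mitochondrial small subunit, 3 of 23 members were at least 1.2-fold higher, against 11.1% of all genes, and 2 were at least 1.2-fold lower, against 9.78%. The other 18 lay within 1.2-fold, a share close to the 79.1% of all genes. MRPS28 had a log2 value of 8.71 with FOSL1 siRNA, against 8.29 with control siRNA, a level 1.34-fold higher and the highest of the 111 members. It ranked 266 from the highest among 7442 genes. MRPS10 had 10.17 with FOSL1 siRNA, against 9.90 with control siRNA, and was 1.21-fold higher. MRPS35, a mitochondrion-specific protein of the particle, had 11.13 with FOSL1 siRNA and 10.86 with control siRNA, a difference of 0.27. MRPS33 differed by 0.20.

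MRPS14 had a log2 value of 9.41 with FOSL1 siRNA, against 9.77 with control siRNA, and was 1.28-fold lower. MRPS2, mutated in a disorder with hearing loss and respiratory chain defects, had 9.39 with FOSL1 siRNA and 9.71 with control siRNA, and was 1.25-fold lower by its brighter probe set. That probe set is uncertain as to strand, as given below. MRPS17 and MRPS16 both differed by -0.20, and MRPS16 is a gene of combined respiratory chain deficiency. MRPS12, the counterpart of the bacterial decoding protein S12, was chosen after its values were seen and differed by 0.09.

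In the mitochondrial large subunit, MRPL49 stood lowest of all members. MRPL49 had a log2 value of 10.22 with FOSL1 siRNA, against 10.64 with control siRNA, a level 1.34-fold lower, and ranked 192 from the lowest among 7442 genes. The next were MRPL36 (-0.26), counterpart of the smallest bacterial ribosomal protein, MRPL2 (-0.25), a protein close to the peptidyl transferase centre, and MRPL14 (-0.21). MRPL35 had 11.11 with FOSL1 siRNA, against 10.91 with control siRNA, and at 0.19 was the highest of the class among those that passed the filter. MRPL42, MRPL1 and MRPL45, the last of which anchors the particle to the inner membrane, differed by 0.17, 0.14 and 0.13. The other members of the class lay between these values, with 26 of 44 below 0.

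Mitochondrial proteins numbered up to 36 in the large and up to 21 in the small subunit are named after bacterial ribosomal proteins, and most later numbers belong to proteins gained in mitochondria. This split was made after the values were seen. The 38 with bacterial numbering had a median of -0.05, with 23 below 0, and the 29 with later numbering a median of -0.01, with 15 below 0. With bacterial numbering, MRPS14, MRPS2 and MRPL2 were low and MRPS10 was high. With later numbering, MRPL49 was low and MRPS28 and MRPS35 were high, so the groups overlapped.

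Gene span moved with the differences. Across the 111 members, span and difference had a Spearman correlation of 0.31, and across all 7442 genes one of 0.34. Genes of a set share the 2 libraries, so these values are descriptions. The Spearman correlation was 0.48 over the 67 mitochondrial members and 0.15 over the 44 cytosolic ones. On log10 span, the Pearson correlation was 0.47 for the mitochondrial and 0.00 for the cytosolic members. Spans ran from 677 to 111543 bases in the mitochondrial and from 1335 to 27723 in the cytosolic members. MRPS28 has the longest span of the members, 111543 bases, and the highest difference, while MRPL49 spans 5189 bases. Of the 37 shortest members, from 677 to 4624 bases, 30 were below 0, with a median of -0.08. All genes in that range had a median of -0.11, with 72.0% below 0. The 37 members of middle span, from 4639 to 11249 bases, had a median of -0.02, with 20 below 0, against -0.09 and 69.3% for all genes in that range. The 37 longest, from 12343 bases, had a median of 0.02, as did all genes in their range.

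With the span trend removed, the 4 class medians all lay above 0, at 0.01 for RPS, 0.04 for RPL, 0.00 for MRPS and 0.06 for MRPL. The trend was fitted over all named genes, whereas the cytosolic members by themselves showed little of it. Then 44 of 111 members (39.6%) were below 0, against 47.1% of all genes. The number at least 1.2-fold higher became 7 (6.31%, against 11.4% of all genes) and the number at least 1.2-fold lower became 2 (1.80%, against 7.11%). The 2 that stayed lower were MRPL49, at -0.34, and MRPS14, at -0.28, while MRPS2 and RPS15A lay at -0.23 and -0.21. MRPS28 and MRPS10 remained above 1.2-fold, at 0.38 and 0.34, and MRPS35 was just short of it at 0.25. RPS26 (0.34), RPS9, RPS23, RPL37A and MRPS33, between 0.26 and 0.28, made up the rest. With the span and brightness trends both removed, the RPL and MRPL medians lay above 0, at 0.02 and 0.04, and the RPS and MRPS medians below it, at -0.02 and -0.01. The sign of the class medians thus depended on the trend removed, while MRPL49, MRPS14, MRPS28 and MRPS10 stayed on their sides of 0.

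**Figure D3:**
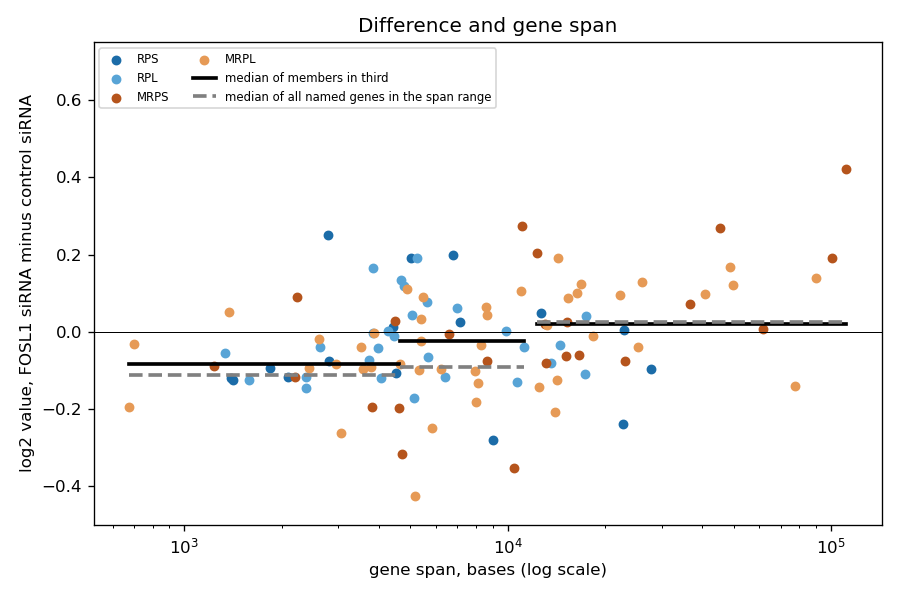
Difference in log2 value (FOSL1 siRNA minus control siRNA, vertical axis) of the 111 members that passed the filter against gene span in bases (log scale). Black lines are the medians of the 37 shortest, 37 middle and 37 longest members, and dashed grey lines the medians of all named genes within the same span range. Short members lie mostly below 0, as do short genes in general, and the median of the middle members (-0.02) lies above that of all genes of their span (-0.09), with members on both sides of it.

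Promoters of mitochondrial members often hold AAGATGGC, a motif of the factor YY1, here searched on both strands from 250 bases before to 50 after the start. It was found in 6 of 23 MRPS and 12 of 41 MRPL promoters, in 2 of 17 RPS and 2 of 27 RPL promoters, and in 3.03% of all 27305 promoters. The 5 mitochondrial members with the motif on the coding strand inside the window around the start, MRPS10 (chr6:42217842-42217871, minus strand), MRPL42 (chr12:93467504-93467533, plus), MRPS18A (chr6:43687772-43687801, minus), MRPL46 (chr15:88467369-88467398, minus) and MRPL38 (chr17:75904865-75904894, minus), are shown with it in capitals.
MRPS10: ctgagaggtcgggaccggcAAGATGGCggc
MRPL42: tgggaccaggattgaaacAAGATGGCgggt
MRPS18A: aggtcagggtaggtttttgAAGATGGCggc
MRPL46: tgcattgtgggagaacgaAAGATGGCggcg
MRPL38: gtcgcaggccggagggAAGATGGCggcgcc

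The 16 mitochondrial members with AAGATGGC that passed the filter had a median difference of 0.07, with 6 below 0, and ranged from -0.26 for MRPL36 to 0.27 for MRPS10. The 44 without it had a median of -0.07, with 29 below 0. Among cytosolic members the order was the opposite, with a median of -0.11 and 3 of 4 below 0 with the motif, and -0.04 over the 36 without it. With the span trend removed, the medians were 0.14 with the motif and 0.00 without it, and the median spans were 7240 and 8605 bases. The 2 groups overlapped, and this split is 1 of several motif splits looked at, with no test. Members without a promoter sequence here are in no motif group, among them MRPS28 (0.42), MRPL35 (0.19) and MRPL2 (-0.25). MRPL42 and MRPS10 were on the higher side, while MRPL46, MRPL38 and MRPS18A differed by -0.10, -0.10 and -0.06.

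The AP-1 motif TGANTCA was found in 3 of the 108 members with a promoter in the table, RPL6, RPL24 and MRPS35, and in 7.76% of all promoters. RPL6 differed by -0.08, RPL24 by 0.08 and MRPS35 by 0.27. CCGGAAG, an ETS motif, was in 11 of 23 MRPS, 17 of 41 MRPL, 5 of 17 RPS and 8 of 27 RPL promoters, against 10.7% of all. A match says only that the letters are present. The 25 mitochondrial members that passed the filter with CCGGAAG had a median of -0.04, and the 35 without it one of -0.01. CACGTG, the E-box bound by MYC, was in 7 of the 108 promoters, against 7.43% of all.

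Of the members, 7 had several named probe sets, which share the same 2 RNA samples and are no replicates. MRPS16 gave -0.20 and -0.21 on its 2 probe sets. MRPS2 gave -0.32 on the brighter and -0.07 on the dimmer one, so that its 1.2-fold difference rested on 1 probe set. Within a chromosome, probe set numbers of members mostly followed the strand. The brighter probe set of MRPS2 was numbered among members on the strand opposite to the gene. Its dimmer one was numbered among those on its own strand. The dimmer probe sets of MRPS16, RPL19 and MRPL44 were also numbered among members on the opposite strand. RPL39 lies on the minus strand, and its brighter probe set has the lower number of the 2. On other chromosomes, the lower numbers mostly belonged to plus-strand members. Values of the probe sets numbered on the opposite strand, and of the brighter one of RPL39, are uncertain as to strand. RPL39 gave -0.17 and -0.04. RPS18 lay at 0.01 and -0.02, with opposite signs and no direction.

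RPL19, RPL41 and MRPL44, named after their values were seen, had probe sets that differed more from each other than those of the other 4 genes. RPL19, of the large subunit, had 13.45 with FOSL1 siRNA and 13.46 with control siRNA on its brightest probe set, a difference of -0.01. Its second probe set had 10.87 with FOSL1 siRNA and 11.72 with control siRNA, a difference of -0.85. RPL41, the smallest protein of the ribosome, gave -0.05 on its brightest probe set, with 13.79 with FOSL1 siRNA and 13.84 with control siRNA. Its 4 other probe sets gave -0.40, -0.35, -0.32 and -0.25. As a mean over all probe sets, RPL19 was at -0.43 and RPL41 at -0.27, so for these genes the choice of probe set decided the value. MRPL44 gave 0.12 on its bright probe set and 0.54 on one with log2 values of 5.13 with FOSL1 siRNA and 4.58 with control siRNA.

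**Figure D4:**
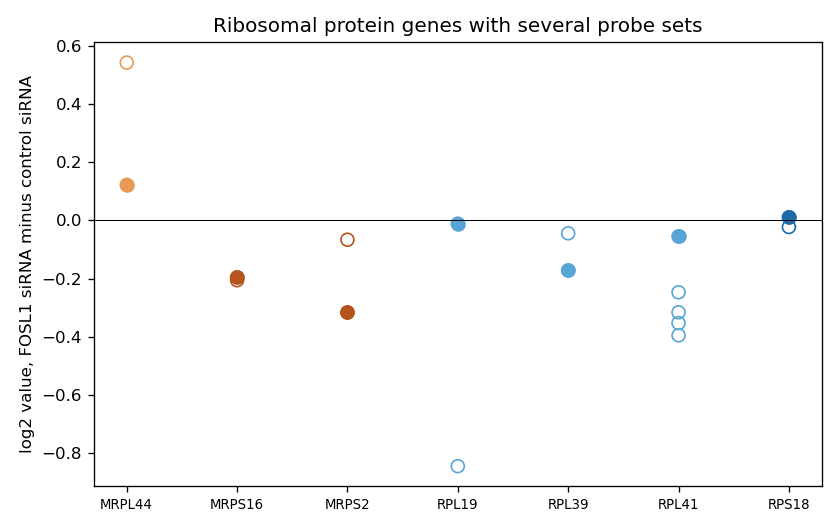
Difference in log2 value (FOSL1 siRNA minus control siRNA, vertical axis) for each probe set of the 7 ribosomal protein genes with several. Filled points are the brightest probe set, which stood for the gene, and open points the others. RPL19 and RPL41 show larger negative differences on their dimmer probe sets, and MRPS16 gives nearly the same value on both.

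Many cytosolic ribosomal protein genes have near-identical processed pseudogenes, so their signals may be shared between copies. Probe set numbers run along chromosomes, and for 3 members all 20 nearest named probe sets belonged to another chromosome than the gene. RPS27 lies on chromosome 1 and its neighbours were on chromosome 12, RPS28 on chromosome 19 with neighbours on 11, and RPS18 on chromosome 6 with neighbours on 3. For RPL12, RPL41, RPL10 and RPL31, the neighbours came from mixed chromosomes. Values of the probe sets read for these 7 genes are uncertain as to locus. A dimmer probe set of RPL41 (-0.25) and the dimmer one of RPS18 (-0.02) were numbered among genes of their own chromosomes. RPS28, a small subunit protein, differed by -0.09 at 13.90 with FOSL1 siRNA and 13.99 with control siRNA. The 7 members with a mean log2 value of at least 13 differed by -0.12 to 0.05, an SD of 0.065, and the 58 named genes that bright had an SD of 0.12.

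Other genes of ribosome making and translation came from lists written from general knowledge, and none of their genes that passed the filter reached 1.5-fold. Of 7 further proteins related to the cytosolic ribosome, 6 were below 0, with a median of -0.07 that became 0.02 with the span trend removed. FAU, whose product is cleaved into RPS30 and a ubiquitin-like protein, had a log2 value of 8.44 with FOSL1 siRNA, against 8.78 with control siRNA, and was 1.27-fold lower. RSL24D1, a biogenesis factor, differed by -0.09 and RSL1D1, of the nucleolus, by 0.11. The 3 further mitochondrial ribosomal proteins that passed the filter were all above 0, with PTCD3 at 0.16 and DAP3, which binds GTP, at 0.03.

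Ribosome biogenesis and nucleolar genes had a median of 0.02 over 60 members that passed the filter, with 25 below 0. Of these 60 genes, 4 were past 1.2-fold on the higher side and 2 on the lower side, both smaller shares than the 11.1% and 9.78% of all genes. NOLC1, a nucleolar phosphoprotein that carries small nucleolar particles, had 10.85 with FOSL1 siRNA, against 11.41 with control siRNA, and was 1.47-fold lower. EIF6, which keeps the subunits apart until the large one is mature, had 11.54 with FOSL1 siRNA and 11.95 with control siRNA, and was 1.32-fold lower. NVL, an ATPase of large subunit maturation, was 1.29-fold higher and NOC3L 1.23-fold higher. The 10 genes of RNA polymerases I and III had a median of 0.05, and MAF1, a repressor of RNA polymerase III, differed by -0.23, POLR3E by -0.17, POLR1F by 0.10 and POLR3G by 0.14.

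Initiation factors had a median of -0.02 over 13 genes, which became 0.04 with the span trend removed, and none reached 1.2-fold. EIF4EBP1, which blocks the cap-binding protein EIF4E when mTOR is inactive, differed by -0.24, and its relative EIF4EBP2 by -0.13. EIF5B, which joins the subunits, differed by 0.19 and EIF4E itself by 0.16. Elongation and termination factors had a median of -0.08 over 15 genes, with 10 below 0. EEF1A2, a tissue-restricted elongation factor, had 10.42 with FOSL1 siRNA, against 10.84 with control siRNA, and was 1.34-fold lower. ZNF598, which senses collided ribosomes, was 1.21-fold lower, while GSPT1, a release factor, differed by 0.11 and EIF5A2 by 0.09.

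Mitochondrial translation and assembly factors had a median of 0.03 over 37 genes, with 14 below 0. At least 1.2-fold higher were 3 of the 37, a smaller share than the 11.1% of all genes, and 0 were 1.2-fold lower, against 9.78%. MTERF2 had 8.29 with FOSL1 siRNA, against 7.86 with control siRNA, and was 1.35-fold higher. DDX28, an RNA helicase of mitoribosome assembly, was 1.23-fold higher, whereas RPUSD3, a pseudouridine synthase, differed by -0.26 and MPV17L2 by -0.20.

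Genes that control ribosomal protein mRNAs had a median of -0.07 over 15 members, which became 0.05 with the filter at the 75th percentile. MTOR, the kinase itself, differed by 0.21 and SSB, the La protein that binds RNA polymerase III transcripts, by 0.28. AKT1S1, an inhibitor within the mTOR complex, differed by -0.31 and MXI1, a MYC antagonist, by -0.35. MYC, which drives ribosome making in many cells, was chosen after its values were seen and had 10.27 with FOSL1 siRNA and 10.40 with control siRNA, a difference of -0.12. Of 8 genes of the 5S particle and its p53 surveillance, HEXIM1 was lowest at -0.29, NOP53 was at -0.19, and RPF2 and HEATR3 were at 0.20 and 0.21.

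**Figure D5:**
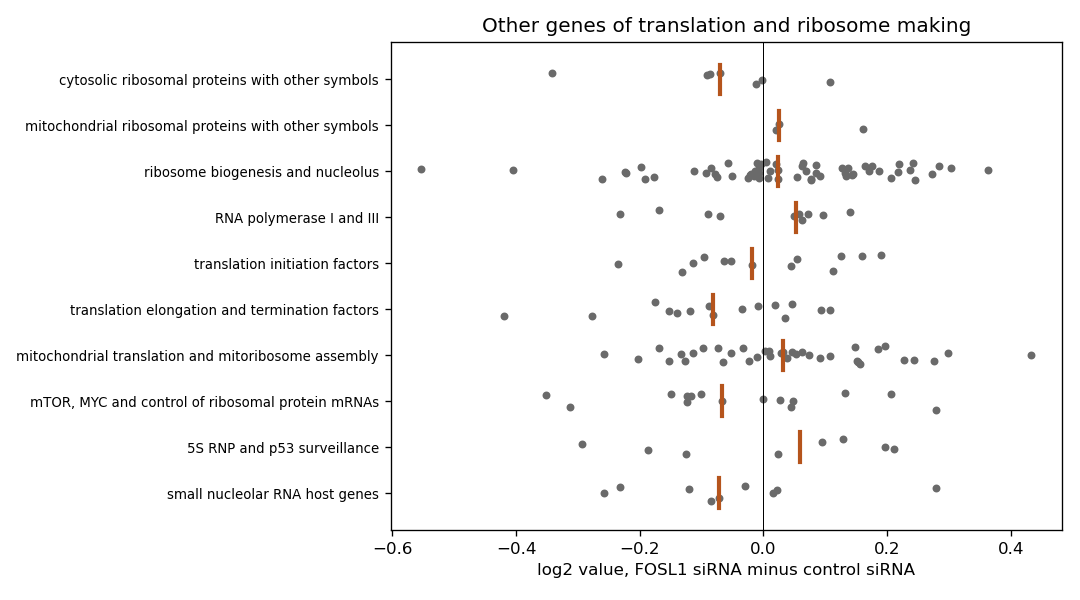
Difference in log2 value (FOSL1 siRNA minus control siRNA, horizontal axis) of other genes of translation and ribosome making that passed the filter, 1 row per list. Points are genes and vertical bars list medians. The medians lie between -0.08 and 0.06, and the lowest gene is NOLC1 at -0.55.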

How the data were processed

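The authors deposited a table with 1 value for each probe set on each array, read here as log2 intensities because it ran from 2.226 to 14.81. How the authors made these log2 values (log base, background correction, summary of probes, normalization, build) is not given in the sources used here. Values at the same rank differed between arrays by at most 0.0301, so these data cannot show a change of all transcripts at once. The number of arrays limits the precision. The probe table named 16098 of 53427 probe sets with 1 gene symbol each. All 14884 genes matched by Entrez ID to the RefSeq table of GRCh38.p14. RefSeq gave names, spans for all but 1 gene, and promoters for 108 of the 121 members. Of the protein-coding RefSeq genes that meet the symbol rule, 31 had no named probe set and were not analysed here. Most of them were cytosolic, so the RPS and RPL classes cover only part of the cytosolic ribosome. No test was run, with 1 array per condition.

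Named genes were the 4 highest and 4 lowest members of each class that passed the filter, paralogues, RPL11, RPS6, RPS19, RPS26, members with probe sets of opposite sign, and up to 2 genes per direction from each list. Members and lists were chosen with earlier results of these data known. Alternatives were median centring, quantile normalization over named genes, removal of lowess trends (fraction 0.4) on brightness, on gene span or on both, no filter or the 75th percentile as filter, the mean of probe sets, and means for medians. The calculation was tested on simulated data and used Python 3.11.15 with statsmodels 0.14.6.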

Additional observations from a re-analysis of the deposited data

How the results depend on the processing

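Under the 8 alternatives that could alter them, no ribosomal protein gene passed 1.5-fold in either direction. At least 1.2-fold higher were 3, but 7 with the span trend removed and 6 with the span and brightness trends removed, and 2 to 4 under the others. At least 1.2-fold lower were 4, but 2 under each of these, and 4 or 5 under the others. Class medians ranged from -0.10 to 0.01 (RPS), -0.05 to 0.04 (RPL), -0.06 to 0.00 (MRPS) and -0.04 to 0.06 (MRPL), and the positive ends came from the span alternatives. Of the list medians, those of the further cytosolic ribosomal proteins (0.02), the initiation factors (0.04) and the small nucleolar RNA host genes (0.01) became positive with the span trend removed, the first and second also with both trends removed (0.00 and 0.03). The initiation factors were also positive without a filter (0.01), the mTOR and MYC list with the stricter filter (0.05), and the RNA polymerase list was negative as a mean (-0.01). The cause of the span trend was not tested. As a mean of probe sets, MRPL44 was at 0.33, RPL19 at -0.43 and RPL41 at -0.27. RPS19, RPL10 and RPS18, all within 0.05 of 0, changed sign under 1 alternative each, and RPL19 and RPL41 did so under both span alternatives. No paired analysis was possible because each condition had 1 array.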

Other observations

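Members on the same chromosome differed in their balance, seen after the values were known and given with no test. On chromosome 11, all 7 members that passed the filter were below 0 (MRPL49, RPS3, MRPL21, MRPL48, MRPL11, MRPL16 and MRPL17), where 60.3% of all 421 genes of that chromosome were below 0. On chromosome 1, 9 of 11 were below 0, against 51.4% of all genes there. On chromosome 2, 3 of 10 were below 0, against 40.3%, and MRPL35 and RPL37A were its highest members.

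Pseudogenes of ribosomal proteins spread more widely than the genes. The 11 that passed the filter had an SD of 0.46 across genes and a median of 0.16. RPL21P28 had a log2 value of 11.01 with FOSL1 siRNA, against 10.28 with control siRNA, and RPL23AP82 had 9.72 with FOSL1 siRNA, against 10.74 with control siRNA. RPL13AP20 differed by 0.23 at 13.05 with FOSL1 siRNA and 12.82 with control siRNA. Host genes of small nucleolar RNAs, several of which carry a 5′ TOP, had a median of -0.07 over 9 genes, which became 0.01 with the span trend removed, with SNHG5 at 0.28, GAS5 at 0.02, SNHG17 at -0.23 and SNHG15 at -0.26.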
